A study of Mus musculus with 4 samples.

Results

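The 41 genes described here are the glutathione peroxidases, glutathione transferases, enzymes of glutathione synthesis and recycling, the thioredoxin system, superoxide dismutases, catalase, the stress-responsive factor NRF2 with its repressor KEAP1 and classical targets, and the metallothioneins. They were taken by symbol from a fixed list, all 41 were found among the 49585 genes of the count table, and 40 had enough fragments to be tested among 15886 genes. The measurements are stranded mRNA sequencing of C2C12, a mouse myoblast line (strain C3H) that fuses into myotubes when serum is lowered. One group of 2 libraries came from cells transduced with a retrovirus to overexpress C/EBPβ, a leucine zipper transcription factor, and the other 2 libraries from cells transduced with the empty vector (pLXSN). Both groups were pooled transductants kept under G418 (1200 µg/ml) for 7 days; after 2 days of proliferation, cells at 90% confluency were switched to 2% horse serum, and RNA was taken 2 days later. The question addressed is what added C/EBPβ does to gene expression in myoblasts under differentiation conditions.

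Glutathione is the main small thiol of the cell. Peroxidases spend it to reduce hydrogen peroxide and lipid peroxides, transferases couple it to electrophiles, and glutathione reductase regenerates it with NADPH, while thioredoxin and the peroxiredoxins form a parallel thiol system. NRF2, held down by KEAP1, switches on many of these genes through antioxidant response elements, and the metallothioneins, small cysteine-rich proteins that bind zinc and copper, are switched on by metals through metal response elements. In muscle these systems handle the oxidants made by respiring and contracting fibres.

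The C/EBPβ libraries held 50493417 and 36461091 assigned fragments and the empty-vector libraries 45448661 and 51537847. Cebpb itself was at 502 and 442 CPM (fragment counts scaled to a common library size) in C/EBPβ cells, against 42.7 and 41.3 CPM in empty-vector cells, and the fitted log2 fold change was 3.49 (SE 0.11, adjusted p = 9.03e-07 in edgeR). Markers of myoblasts and myotubes were present in all libraries but lower with C/EBPβ: the 10 listed summed to 6484 and 10430 CPM in C/EBPβ cells, against 24020 and 26100 CPM in empty-vector cells, and all 10 fell. Of the 6 cycling cell markers 5 fell. Of 10 macrophage markers 7 could be tested, of which 3 rose and 1 fell, and their sum averaged 43.3 CPM in C/EBPβ cells against 8.87 CPM in empty-vector cells. Lyz2 made up most of that sum with a mean of 27.3 CPM in C/EBPβ cells (15.4% of its 50-base windows recur in other genes, mainly Lyz1), while Adgre1 and Tyrobp had no fragment in any library. Of 8 adipocyte markers all 4 tested rose, and the other 4 had too few fragments to test. Lpl made up nearly all of their sum, with a mean of 1271 of 1289 CPM in C/EBPβ cells. Of 9 tested from 10 listed fibroblast and fibro-adipogenic progenitor markers 4 rose and 2 fell, and their sum was 754 and 609 CPM in C/EBPβ cells against 569 and 513 CPM in empty-vector cells. The 7 endothelial markers summed to under 2 CPM in every library. The part of these shifts in the results below was not tested, and in such bulk samples fewer cells of a type and less RNA per cell cannot be told apart.

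Most of the antioxidant genes moved, and more rose than fell. Of the 40 tested members, 21 rose in C/EBPβ cells and 6 fell (edgeR's quasi-likelihood test, adjusted p under 0.05, n = 2 libraries per group), while of all genes tested 22.3% rose, 20.9% fell and 43.2% changed in either direction. As shares of the members tested, 52.5% rose and 15% fell. At least 2-fold rises were found for 9 members, 22.5% of those tested against 9.11% of all genes: Gpx3, Gstm1, Gstm2, Gstt1, Mgst1, Mgst2, Txnip, Prdx4 and Sod3. The steepest fall was that of Gss, with a log2 fold change of -0.83, and 7.5% of all genes were at least 2-fold lower. The median log2 fold change of the members was 0.26, against 0.01 over all genes tested. Both C/EBPβ libraries lay above both controls for 24 members and below both for 10, against 38.4% and 36.7% of all genes. Together the members took on average 0.424% of assigned fragments in C/EBPβ libraries and 0.313% in empty-vector libraries. The total of 27 changed members was 17 without empty-vector replicate 2, and the 6 that fell were 2 there, 3 without C/EBPβ replicate 1 and 2 with library sizes alone, a scaling that gave 21 rises and thus a share of rises among the changed members of 91.3% in place of 77.8%.

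**Figure D1:**
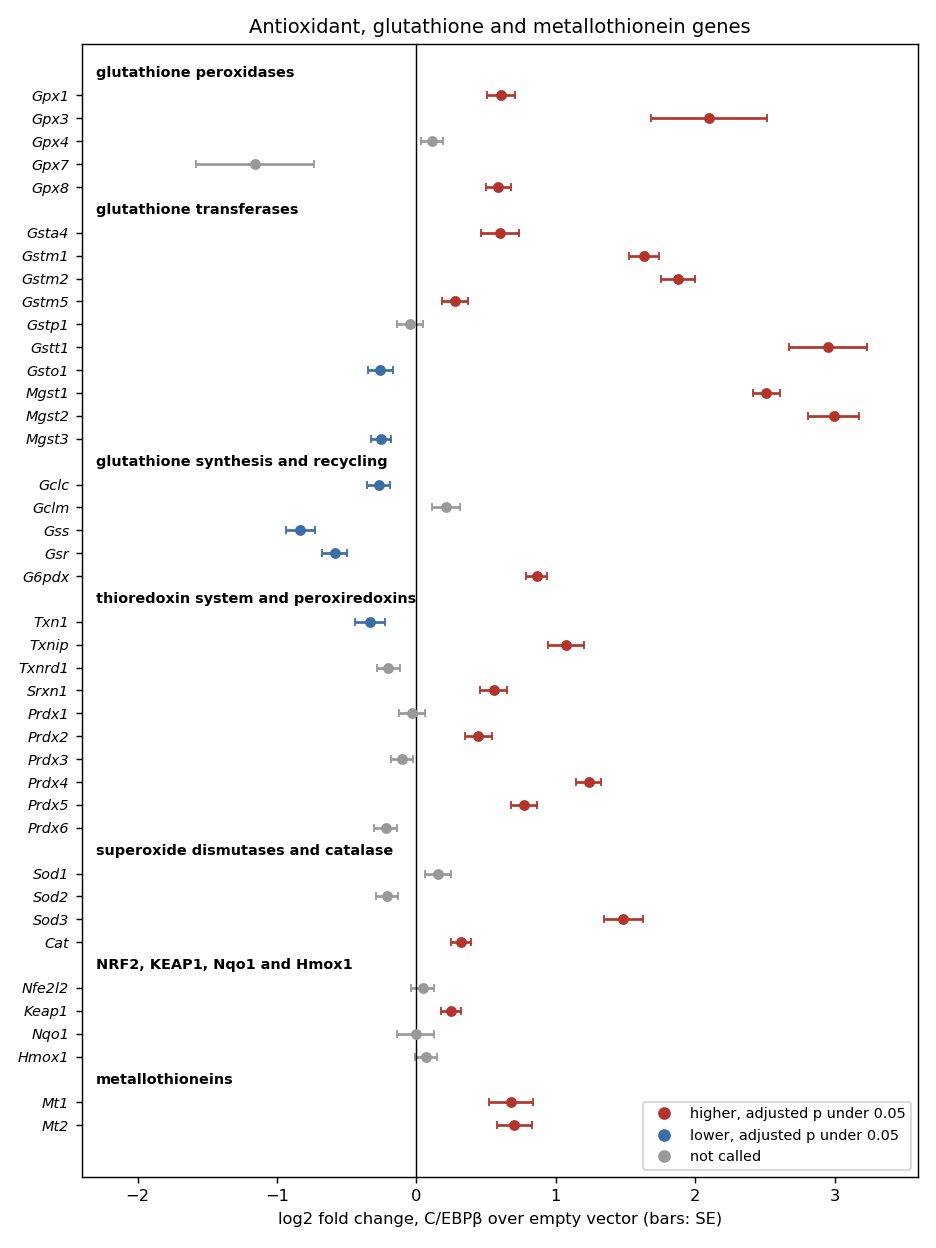
Log2 fold change of the 40 tested members, C/EBPβ over empty vector, with SE bars (n = 2 libraries per group), grouped by role; red and blue mark adjusted p under 0.05. The transferases spread from Mgst2 at 2.99 down to Gsto1 at -0.26, while Nfe2l2, Nqo1 and Hmox1 lie at 0.05, -0.00 and 0.07.

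The glutathione peroxidases rose in part. Gpx3, the peroxidase secreted into plasma and extracellular fluid, was at 189 and 119 CPM in C/EBPβ cells, against 47.2 and 25.0 CPM in empty-vector cells. The groups did not overlap, although each spread widely with replicate 1 the higher. The fold was 4.27 (log2 fold change 2.10, SE 0.42, adjusted p = 0.0223 in edgeR). With the replicate number as a block the log2 fold change was 2.13 (SE 0.08, adjusted p = 1.11e-07 in edgeR). No label says whether equal replicate numbers mark a shared culture. Gpx8, a peroxidase of the endoplasmic reticulum membrane and the most abundant of the 5 per length, averaged 169 ± 8.15 CPM in C/EBPβ cells and 112 ± 6.57 CPM in empty-vector cells (SD, n = 2 each), which is 0.59 on the log2 scale (SE 0.09). Per length its level was 166 FPKM (CPM divided by the annotated exon length in kilobases) with C/EBPβ and 110.5 FPKM with the empty vector. Gpx1, the cytosolic enzyme that reduces hydrogen peroxide, rose by a similar margin, with 118.5 ± 6.68 CPM in C/EBPβ cells and 77.8 ± 9.26 CPM in empty-vector cells (adjusted p = 0.00208, edgeR). The annotated exons of Gpx1 cover its whole locus (1441 bases), which lowers its level per length if introns were spliced out. Gpx4, which reduces lipid peroxides in membranes, stood at 126 ± 3.54 CPM in C/EBPβ cells and 117 ± 3.79 CPM in empty-vector cells without passing the test (log2 fold change 0.11, SE 0.08). For this gene 34.7% of its 50-base windows recur in other annotated genes, mainly a pseudogene, so its count is uncertain. Gpx7, the second enzyme of the endoplasmic reticulum, was close to silent, with 7 and 5 fragments in C/EBPβ libraries and 14 and 15 in empty-vector libraries (log2 fold change -1.16, SE 0.42, adjusted p = 0.0576). Gpx3 lost its call without empty-vector replicate 1 (adjusted p = 0.0601), without empty-vector replicate 2 (0.101) and without the low-count filter (0.186), with a range of 1.27e-103 to 0.186 over 11 alternatives. The lowest came without C/EBPβ replicate 2. In both fits that leave out a C/EBPβ library the remaining one is assumed to vary like the controls and each gene's own spread carries no weight, so small p-values there say nothing about stability.

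The glutathione transferases held the largest rises. Of 11 listed, 7 rose, 2 fell, Gstp1 did not pass and Gstk1 could not be tested. The microsomal enzymes Mgst1 and Mgst2 and the cytosolic Gstt1 led, and all 3 were low in empty-vector cells. Mgst2, a membrane enzyme that can also make leukotriene C4, was at 11.2 and 9.30 CPM in C/EBPβ cells, against 1.19 and 1.38 CPM in empty-vector cells (7.97-fold, log2 fold change 2.99, SE 0.18, adjusted p = 2.17e-05). Its locus spans chr3:51660360-51682677, plus strand (GRCm38). Gstt1, of the theta class, was at 5.38 and 3.72 CPM in C/EBPβ cells, against 0.673 and 0.514 CPM in empty-vector cells (7.66-fold, log2 fold change 2.95, SE 0.28). Its locus spans chr10:75783813-75798584, minus strand. Mgst1, a microsomal transferase with peroxidase activity, was at 52.7 and 50.7 CPM in C/EBPβ cells, against 9.58 and 8.60 CPM in empty-vector cells (5.69-fold, log2 fold change 2.51, SE 0.10). For each of these 3 genes the lower C/EBPβ library stood several times above the higher control.

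Gstm1 and Gstm2, cytosolic transferases of the mu class, rose as well. Gstm1 was at 112 and 94.8 CPM in C/EBPβ cells, against 35.9 and 30.8 CPM in empty-vector cells (3.10-fold, log2 fold change 1.63, SE 0.11). Gstm2 was at 37.9 and 31.3 CPM in C/EBPβ cells, against 9.42 and 9.45 CPM in empty-vector cells (3.67-fold, log2 fold change 1.88, SE 0.12). Both belong to a cluster of 7 listed mu-class genes on chromosome 3 from 107895821 to 108044894 (GRCm38), and they were not followed evenly by their neighbours. Gstm5, at the edge of the cluster, averaged 29.6 ± 2.12 CPM in C/EBPβ cells and 24.5 ± 1.09 CPM in empty-vector cells (log2 fold change 0.28, SE 0.10, adjusted p = 0.0477). Gstm7 was scarce, at 1.34 and 0.930 CPM in C/EBPβ cells against 0.561 and 0.356 CPM in empty-vector cells (log2 fold change 1.34, SE 0.34, adjusted p = 0.0141), and Gstm3, Gstm4 and Gstm6 had too few fragments to test. Of the theta-class neighbours of Gstt1, Gstt3 passed as higher (log2 fold change 1.94, SE 0.27) but is uncertain, since 12.5% of its windows recur in other genes and Gm20441 covers 19.9% of its exon bases on the same strand, Gstt2 stood at -0.13 (SE 0.24), and Gstt4 had no fragment in any library. Gstm1 shares 18.9% of its 50-base windows with other annotated genes, mainly a pseudogene, and Gstm2 5.65%.

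The remaining transferases moved less. Gsta4, an alpha-class enzyme that detoxifies the lipid aldehyde hydroxynonenal, averaged 50.8 ± 8.64 CPM in C/EBPβ cells and 33.6 ± 3.88 CPM in empty-vector cells (log2 fold change 0.60, SE 0.14). Gsto1, of the omega class, and Mgst3, the third microsomal member, fell by small margins: Gsto1 stood at -0.26 on the log2 scale (SE 0.09) and Mgst3 at -0.25 (SE 0.07). Gstp1, the pi-class enzyme, was the most abundant transferase of empty-vector cells and differed least, at 46.4 ± 2.81 FPKM in C/EBPβ cells and 47.9 ± 3.88 FPKM in empty-vector cells (log2 fold change -0.05, SE 0.09); 33.7% of its windows recur elsewhere, mainly in Gstp2. Gstk1, a mitochondrial and peroxisomal transferase, had 2 and 0 fragments in C/EBPβ libraries and 0 and 1 in empty-vector libraries. The order of levels per length therefore differed between the groups. Gstm1 held 23.5% of the summed transferase FPKM in C/EBPβ cells and 11.0% in empty-vector cells. Gstp1 held 15.6% in C/EBPβ cells and 23.2% in empty-vector cells, and Mgst1 8.62% in C/EBPβ cells and 2.19% in empty-vector cells. The summed level was 298 ± 16.8 FPKM in C/EBPβ cells and 206 ± 8.64 FPKM in empty-vector cells. Gstm5 lost its call with median-ratio size factors in edgeR (adjusted p = 0.0517) and with DESeq2 (0.0965). Gsto1 lost its call with library sizes alone (adjusted p = 0.0934), the filter at 1 CPM (0.0507), DESeq2 (0.0754) and limma-voom (0.0543). Mgst3 lost its call with library sizes alone (adjusted p = 0.0640). The calls of these genes also ended in several fits that leave out a library, and that of Gsta4 without empty-vector replicate 1 (log2 fold change 0.48).

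**Figure D2:**
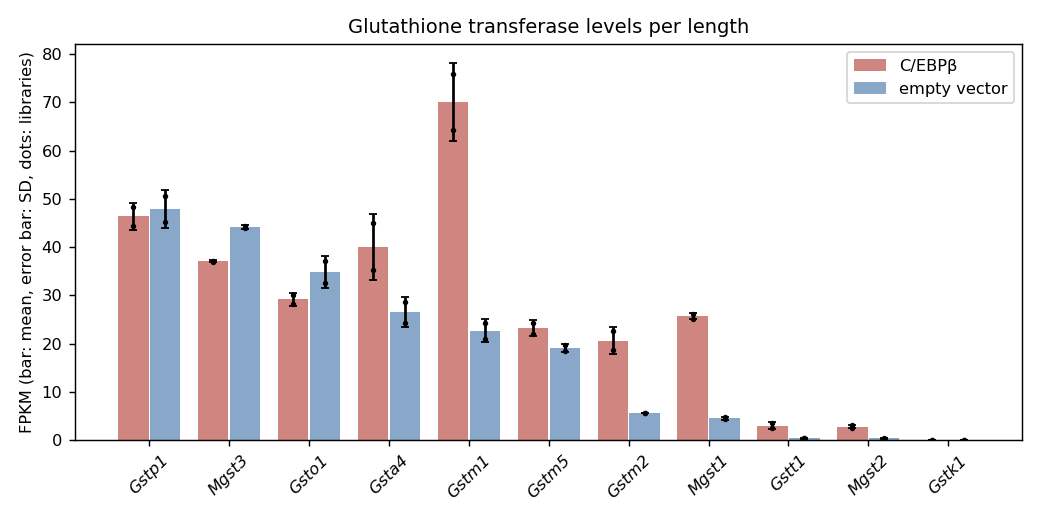
Levels of the 11 glutathione transferases in FPKM, ordered by the empty-vector level, with C/EBPβ left of empty vector; bars are means of 2 libraries, error bars SD and dots libraries. Gstm1 reached 70.1 FPKM in C/EBPβ cells, above Gstp1 at 46.4 FPKM, whereas in empty-vector cells they stood at 22.6 and 47.9 FPKM.

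The promoters of the members with the steepest rises and the steepest fall are shown because the overexpressed protein binds DNA. The windows are from RefSeq (GRCm38.p6), cover 250 bases before to 50 after the annotated start, and read 5′ to 3′ on the gene's strand. Capitals mark matches, on either strand, to TTGCNNAA (a C/EBP motif), to TGACNNNGC (the antioxidant response element core) and to TGCACNC or TGCGCNC (the metal response element core), and the marked matches do not overlap each other. The Mgst2 window is chr3:51660929-51661228 on the plus strand, the Gstt1 window chr10:75797682-75797981 on the minus strand, and the window of Gss, glutathione synthetase, chr2:155592761-155593060 on the minus strand.
Mgst2: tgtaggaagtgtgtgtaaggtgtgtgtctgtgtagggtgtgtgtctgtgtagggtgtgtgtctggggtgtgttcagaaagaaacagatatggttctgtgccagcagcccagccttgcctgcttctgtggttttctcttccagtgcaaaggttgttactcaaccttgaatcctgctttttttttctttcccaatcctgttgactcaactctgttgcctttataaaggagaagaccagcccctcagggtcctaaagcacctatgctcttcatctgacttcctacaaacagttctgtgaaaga
Gstt1: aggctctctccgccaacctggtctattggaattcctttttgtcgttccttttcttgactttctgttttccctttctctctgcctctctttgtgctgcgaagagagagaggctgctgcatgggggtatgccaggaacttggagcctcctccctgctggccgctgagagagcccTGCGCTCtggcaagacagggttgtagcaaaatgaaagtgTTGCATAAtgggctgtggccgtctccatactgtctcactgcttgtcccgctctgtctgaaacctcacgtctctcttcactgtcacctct
Gss: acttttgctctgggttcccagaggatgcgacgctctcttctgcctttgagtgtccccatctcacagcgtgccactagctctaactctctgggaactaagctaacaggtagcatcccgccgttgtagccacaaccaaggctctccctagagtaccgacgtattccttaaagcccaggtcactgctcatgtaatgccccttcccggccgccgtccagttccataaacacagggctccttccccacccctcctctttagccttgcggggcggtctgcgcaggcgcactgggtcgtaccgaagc
The Gstt1 window held 1 match to TTGCNNAA, starting at position -39 from the start, and 1 metal response element core, while the windows of Mgst2 and Gss held none of the 3 motifs. The Mgst2 and Gstt1 windows lie wholly inside the loci given above, whose 5′ ends are further upstream and were not searched. Over 32851 promoter windows of the same length, 10.8% held TTGCNNAA, 12.4% the antioxidant core and 25.7% the metal core. Promoters were found for 35 of the 41 members, and of these 5 held TTGCNNAA (Gstm2, Gstt1, Mgst1, Mt2 and Prdx3), 10 the antioxidant core and 12 the metal core. A member was counted if any of its windows matched. These counts are thus per gene and cannot be set directly against the shares of windows. The 10 with the antioxidant core were G6pdx, Gclm, Gstm5, Mgst1, Mt2, Nfe2l2, Prdx1, Sod1, Srxn1 and Txnrd1. Of these 10, 5 rose, with log2 fold changes of 0.28 to 2.51, and 5 did not pass. That share of rises was near the 52.5% of all members tested, while 22.3% of all genes rose. A match of letters is a description of these windows and not evidence of binding.

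Of the 5 genes for making and recycling glutathione 3 fell, G6pdx rose and Gclm did not pass. Gss, which completes glutathione by adding glycine, was at 41.4 and 50.3 CPM in C/EBPβ cells, against 78.2 and 84.9 CPM in empty-vector cells (log2 fold change -0.83, SE 0.11, adjusted p = 0.000698). Gsr, the reductase that returns oxidised glutathione to its thiol form, averaged 31.6 ± 1.86 CPM in C/EBPβ cells and 47.4 ± 3.37 CPM in empty-vector cells (log2 fold change -0.58, SE 0.09). Its level per length was 11.5 ± 0.674 FPKM with C/EBPβ and 17.2 ± 1.22 FPKM with the empty vector, where it was the most abundant of this set. The 2 subunits of glutamate-cysteine ligase, the rate-limiting step, did not move together. Gclc, the catalytic subunit, fell slightly (log2 fold change -0.27, SE 0.08, adjusted p = 0.0304), and Gclm, the modifier subunit, stood at 0.21 (SE 0.10, adjusted p = 0.126). G6pdx, the first enzyme of the pentose phosphate pathway and a source of NADPH, was at 60.7 and 57.8 CPM in C/EBPβ cells, against 32.7 and 32.5 CPM in empty-vector cells (log2 fold change 0.86, SE 0.08, adjusted p = 0.000103). With C/EBPβ it was the most abundant of the set per length, at 19.2 ± 0.661 FPKM against 10.6 ± 0.0420 FPKM in empty-vector cells. The call of Gclc ended with library sizes alone (adjusted p = 0.0644) and with DESeq2 (0.0522). It also ended when any library but C/EBPβ replicate 2 was left out.

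In the thioredoxin system the carrier fell while its inhibitor rose. Txn1, thioredoxin itself and the most abundant of these 10 genes per length, was at 183 and 186 CPM in C/EBPβ cells, against 211 and 254 CPM in empty-vector cells (log2 fold change -0.34, SE 0.11, adjusted p = 0.0352). Txnip, which binds and inhibits thioredoxin and restrains glucose uptake, was at 184 and 180 CPM in C/EBPβ cells, against 98.4 and 74.5 CPM in empty-vector cells (2.10-fold, log2 fold change 1.07, SE 0.13, adjusted p = 0.000775). Its locus spans chr3:96557957-96561883, plus strand (GRCm38). Txnrd1, the selenoenzyme that reduces thioredoxin, was at 173 and 170 CPM in C/EBPβ cells, against 195 and 199 CPM in empty-vector cells, without overlap but short of the threshold (log2 fold change -0.20, SE 0.08, adjusted p = 0.0782). Srxn1, sulfiredoxin, which repairs overoxidised peroxiredoxins, also rose (log2 fold change 0.55, SE 0.10). The call of Txn1 ended without empty-vector replicate 2 (log2 fold change -0.19) and with library sizes alone (adjusted p = 0.0622 in edgeR).

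The 6 peroxiredoxins differed by family member. Prdx4, the peroxiredoxin of the endoplasmic reticulum, was at 155 and 141 CPM in C/EBPβ cells, against 65.5 and 60.2 CPM in empty-vector cells (2.35-fold, log2 fold change 1.23, SE 0.09, adjusted p = 4.06e-05). Its locus spans chrX:155323918-155340754, minus strand. Prdx5, found in mitochondria, peroxisomes and cytosol, averaged 247 ± 19.8 CPM in C/EBPβ cells and 145 ± 4.67 CPM in empty-vector cells (log2 fold change 0.77, SE 0.09). Prdx2, a cytosolic member, averaged 352 ± 12.1 CPM in C/EBPβ cells and 259 ± 16.8 CPM in empty-vector cells (log2 fold change 0.44, SE 0.10). The other 3 did not pass: the cytosolic Prdx1 stood at -0.03 (SE 0.10), the mitochondrial Prdx3 at -0.10 (SE 0.08) and Prdx6, which also acts on phospholipids, at -0.22 (SE 0.08, adjusted p = 0.0661). Prdx1 changed sign to 0.02 with library sizes alone. Prdx2 lost its call without empty-vector replicate 2 (log2 fold change 0.38). Prdx6 passed as lower with the replicate number as a block (adjusted p = 0.0410 in edgeR) and without the low-count filter (0.0478). In the fit without that filter the spread of a gene itself carried no weight for most genes.

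Of the superoxide dismutases Sod3 rose and the other two did not pass. Sod3, the secreted enzyme bound to the extracellular matrix, was at 173 and 224 CPM in C/EBPβ cells, against 65.9 and 76.0 CPM in empty-vector cells (2.80-fold, log2 fold change 1.48, SE 0.14, adjusted p = 0.000305). Its locus spans chr5:52363791-52371418, plus strand (GRCm38). Sod1, the cytosolic copper-zinc enzyme and the most abundant of the 3 per length, was at 122 and 114 CPM in C/EBPβ cells, against 98.8 and 113 CPM in empty-vector cells (log2 fold change 0.16, SE 0.09, adjusted p = 0.208). Its level per length was 183 ± 8.55 FPKM with C/EBPβ and 164 ± 15.7 FPKM with the empty vector. Sod2, the mitochondrial manganese enzyme, averaged 73.9 ± 2.00 CPM in C/EBPβ cells and 85.6 ± 5.25 CPM in empty-vector cells (log2 fold change -0.21, SE 0.08, adjusted p = 0.0622), and 21.0% of its windows recur in other annotated genes. Cat, the peroxisomal catalase that breaks down hydrogen peroxide, rose modestly, with 96.9 ± 2.15 CPM in C/EBPβ cells and 77.6 ± 0.541 CPM in empty-vector cells (log2 fold change 0.32, SE 0.07). Sod2 passed as lower with the replicate number as a block (adjusted p = 0.0270 in edgeR). It also passed without the low-count filter and without C/EBPβ replicate 2. In those fits the spread of a gene itself carried no weight for most or all genes. Under the other alternatives Sod2 did not pass. Cat missed the threshold without empty-vector replicate 2, where its log2 fold change was 0.33.

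**Figure D3:**
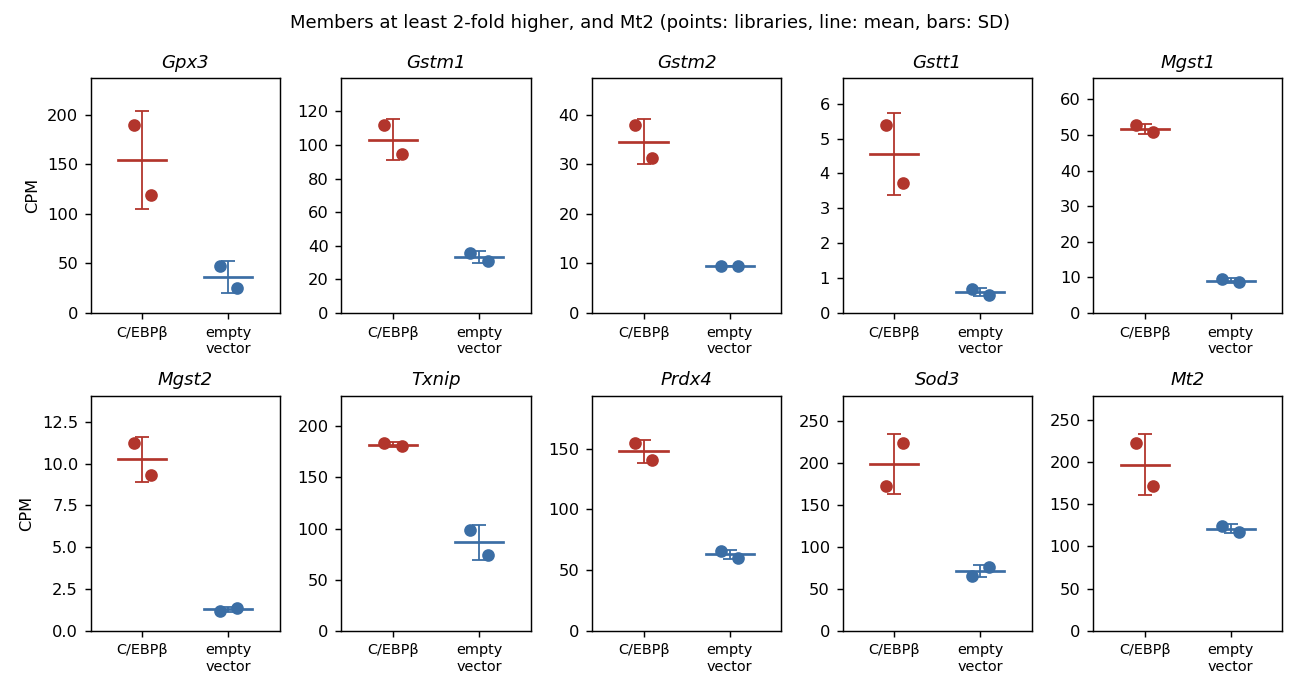
CPM in each library for the 9 members that were at least 2-fold higher and for Mt2, with C/EBPβ left of empty vector; points are libraries, lines means and bars SD (n = 2). In all 10 panels both C/EBPβ libraries lie above both empty-vector libraries, by the narrowest relative margin in Mt2 (171 against 125 CPM).

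Nfe2l2, Nqo1 and Hmox1 did not pass the test, while other genes tied to NRF2 did. Nfe2l2, which encodes NRF2, was at 142 and 146 CPM in C/EBPβ cells, against 145 and 134 CPM in empty-vector cells, with overlapping groups (log2 fold change 0.05, SE 0.08, adjusted p = 0.687). Nqo1, a quinone reductase and standard NRF2 target, was at 8.65 and 8.62 CPM in C/EBPβ cells, against 8.01 and 9.29 CPM in empty-vector cells (log2 fold change -0.00, SE 0.13, adjusted p = 0.983). Hmox1, haem oxygenase 1, was at 48.6 and 47.0 CPM in C/EBPβ cells, against 44.1 and 47.2 CPM in empty-vector cells (log2 fold change 0.07, SE 0.08, adjusted p = 0.515). Of these 3 genes Nfe2l2 was the most abundant per length, at 37.9 ± 0.643 FPKM with C/EBPβ and 36.7 ± 1.91 FPKM with the empty vector. Keap1, the adaptor that sends NRF2 to degradation, was at 60.2 and 61.6 CPM in C/EBPβ cells, against 51.1 and 51.5 CPM in empty-vector cells, and passed by a small margin (log2 fold change 0.25, SE 0.07, adjusted p = 0.0248). Other members known as NRF2 targets ran on both sides of 0 on the log2 scale. Srxn1 (0.55), G6pdx (0.86), Gstm1 (1.63) and Mgst1 (2.51) rose, while Gclc (-0.27), Gsr (-0.58) and Txn1 (-0.34) fell. Gclm (0.21), Txnrd1 (-0.20), Prdx1 (-0.03) and Prdx6 (-0.22) did not pass. Of 31 other NRF2 pathway genes tested from 32 listed, 14 rose and 5 fell, which is 45.2% and 16.1% against 22.3% and 20.9% of all genes. The call of Keap1 ended with DESeq2 (adjusted p = 0.0670) and when any library was left out. The sign of Nqo1 was positive in 4 alternatives and that of Nfe2l2 negative in 1.

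**Figure D4:**
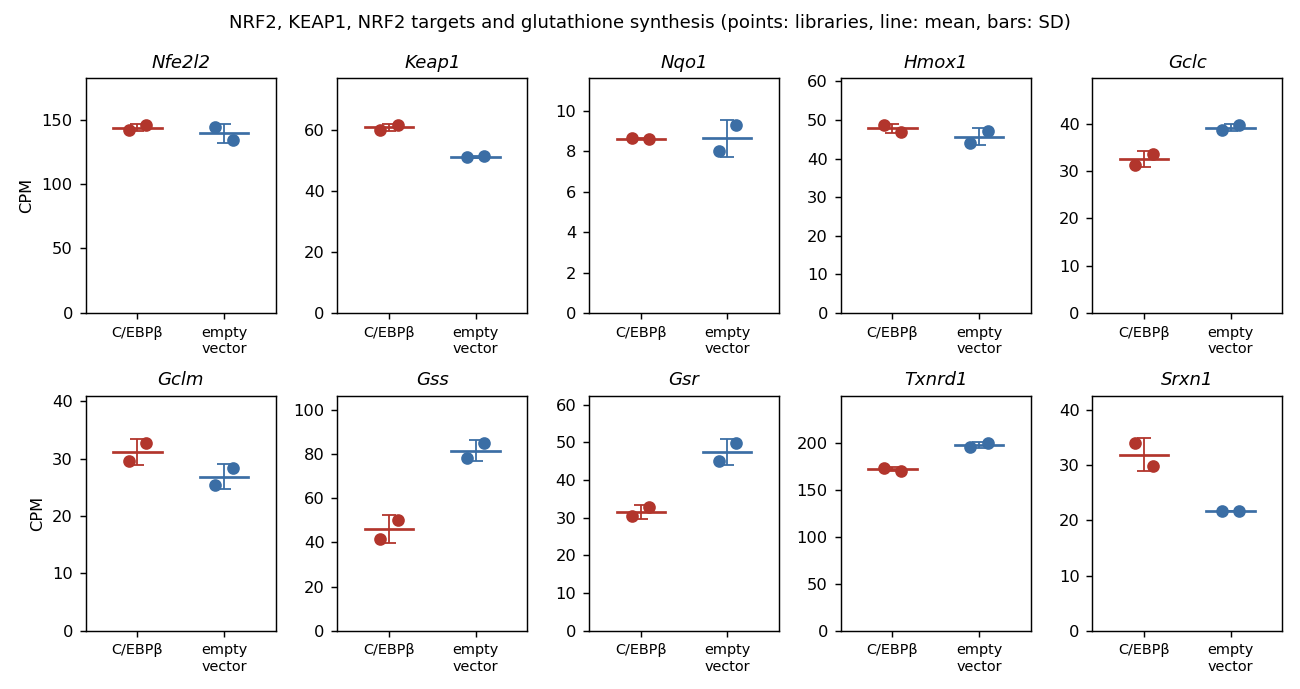
CPM in each library for Nfe2l2, Keap1, 4 NRF2 targets of the oxidant response, and 4 genes of glutathione synthesis and recycling, with C/EBPβ left of empty vector; points are libraries, lines means and bars SD (n = 2). The groups overlap for Nfe2l2, Nqo1 and Hmox1, while Gss and Gsr are lower and Srxn1 higher in both C/EBPβ libraries.

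Both metallothioneins rose by nearly the same amount. Mt2, the most abundant of the 41 members per length in C/EBPβ cells, was at 222 and 171 CPM in C/EBPβ cells, against 125 and 117 CPM in empty-vector cells (1.63-fold, log2 fold change 0.70, SE 0.13, adjusted p = 0.00401). Mt1 was at 300.2 and 217 CPM in C/EBPβ cells, against 169.5 and 153 CPM in empty-vector cells (log2 fold change 0.68, SE 0.16, adjusted p = 0.0138). For both genes the C/EBPβ libraries lay apart from each other, with replicate 1 the higher, and above both controls. Per length Mt2 was at 335 ± 61.3 FPKM in C/EBPβ cells and 206 ± 8.66 FPKM in empty-vector cells. Mt1 was at 207 ± 47.5 FPKM in C/EBPβ cells and 129.5 ± 9.25 FPKM in empty-vector cells. The annotated exons of Mt1 sum to 1246 bases, the whole span of its locus, against 588 for Mt2. Any intron of Mt1 is thus counted as exon, which lowers its figure if introns were spliced out. Mt2 ranks above Mt1 per length because of these lengths, while in CPM Mt1 was the higher in every library. The genes are neighbours on chromosome 8 (GRCm38), Mt2 from 94172664 to 94173568 and Mt1 from 94179082 to 94180327, both on the plus strand. Their promoters are shown because metal response elements are their best known control. The windows, with capitals as above, are chr8:94178839-94179138 for Mt1 and chr8:94172368-94172667 for Mt2, both on the plus strand.
Mt1: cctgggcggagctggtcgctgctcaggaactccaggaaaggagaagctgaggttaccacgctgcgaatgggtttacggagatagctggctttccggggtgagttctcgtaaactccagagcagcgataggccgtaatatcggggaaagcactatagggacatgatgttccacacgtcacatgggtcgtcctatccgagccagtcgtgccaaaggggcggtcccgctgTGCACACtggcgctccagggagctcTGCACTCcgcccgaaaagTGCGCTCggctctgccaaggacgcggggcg
Mt2: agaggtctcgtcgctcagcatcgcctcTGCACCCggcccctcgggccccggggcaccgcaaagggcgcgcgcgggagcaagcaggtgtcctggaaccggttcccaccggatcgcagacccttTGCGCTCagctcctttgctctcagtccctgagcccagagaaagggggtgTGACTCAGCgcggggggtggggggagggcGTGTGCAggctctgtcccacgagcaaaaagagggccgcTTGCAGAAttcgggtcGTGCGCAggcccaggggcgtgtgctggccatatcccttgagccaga
The Mt1 window held 3 metal response element cores, starting at positions -23, 3 and 21 from the annotated start. The Mt2 window held 4, at -223, -128, -50 and 5, with 1 antioxidant core and 1 match to TTGCNNAA beside them. Some of these cores thus lie after the annotated start, and elements outside the windows were not counted. Which start these cells used was not tested, so such a core may still lie upstream of the start in use. Mt1 lost its call when either empty-vector replicate was left out (adjusted p = 0.0536 for the first and 0.110 for the second; range 9.51e-14 to 0.110, the lowest without C/EBPβ replicate 2).

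Other genes of metal handling changed in smaller shares than all genes. Of 22 tested from 28 listed genes for zinc and copper, 4 rose, Mtf1 fell and 17 did not pass, with a median log2 fold change of 0.04 over those tested. The shares were 18.2% higher and 4.55% lower, against 22.3% and 20.9% of all genes. Mtf1, the factor that binds metal response elements, was at 31.6 and 37.0 CPM in C/EBPβ cells, against 43.3 and 43.5 CPM in empty-vector cells (log2 fold change -0.34, SE 0.10, adjusted p = 0.0214). Slc30a1, the zinc exporter that is another metal-induced gene, stood at 0.05 (SE 0.09). The zinc transporters of the secretory pathway Slc39a13 (0.74, SE 0.11) and Slc30a7 (0.48, SE 0.09) were the risers with the smallest p.

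Among relatives outside the 41, single genes moved far while their lists differed in how many changed. Of 26 other thioredoxin and glutaredoxin genes 7 rose and 19 did not pass, so that 26.9% changed, against 43.2% of all genes, and the share that rose was near the 22.3% of all genes. Glrx, glutaredoxin 1, which removes glutathione from proteins, was at 60.0 and 51.5 CPM in C/EBPβ cells, against 10.1 and 10.5 CPM in empty-vector cells (log2 fold change 2.44, SE 0.11), Sesn3, a sestrin, rose by 1.34 (SE 0.09), and Arrdc4, a relative of Txnip, by 3.05 (SE 0.25). Of 23 other glutathione genes tested from 35 listed, 7 rose and 7 fell, 30.4% in each direction against 22.3% and 20.9% of all genes. Ggt7, of the family of enzymes that cleave extracellular glutathione, was at 22.3 and 19.9 CPM in C/EBPβ cells, against 6.04 and 4.51 CPM in empty-vector cells (log2 fold change 2.00, SE 0.16), whereas Gstcd, a protein with a transferase-like domain, fell (-0.83, SE 0.11). Of the other NRF2 pathway genes, Tkt of the pentose phosphate pathway rose by 1.15 (SE 0.07) and the NADPH-linked enzyme Idh1 by 1.01 (SE 0.09), while Trim16 fell by 1.01 (SE 0.09).

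Oxidant-producing enzymes changed in both directions. Of 10 genes tested from 16 listed for NADPH oxidases and other superoxide sources, 5 rose and 5 fell, so that all 10 changed, against 43.2% of all genes. Xdh, xanthine dehydrogenase, was at 378 and 257 CPM in C/EBPβ cells, against 16.3 and 7.95 CPM in empty-vector cells (log2 fold change 4.72, SE 0.46, adjusted p = 0.00321). Aox1, aldehyde oxidase, rose by 1.70 (SE 0.18), while Ncf1, a cytosolic subunit of the phagocyte oxidase, fell by 1.82 (SE 0.31). Cybb, the catalytic subunit of that oxidase, had 365 and 82 fragments in C/EBPβ libraries and none in the empty-vector libraries. With both C/EBPβ libraries pooled it lay at least 159.6-fold higher when the empty-vector group as a whole is set to 3 fragments. Replicate 1 gave most of the pooled fragments, so the bound does not hold for each library. Cybb was named after its values were seen. Of 21 genes tested from 24 listed for other selenoproteins and for selenoprotein synthesis, 5 rose and 2 fell. The 23.8% that rose was near the 22.3% of all genes, and the 33.3% that changed was below the 43.2% of all genes. Selenop, the secreted selenium carrier, was at 451 and 298 CPM in C/EBPβ cells, against 34.2 and 26.2 CPM in empty-vector cells (log2 fold change 3.63, SE 0.26, adjusted p = 0.000504), and Selenoo and Selenos rose by 0.47 (SE 0.09) and 0.38 (SE 0.08). Among the members that carry selenocysteine, Gpx1 and Gpx3 rose, and Gpx4 and Txnrd1 did not pass.

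**Figure D5:**
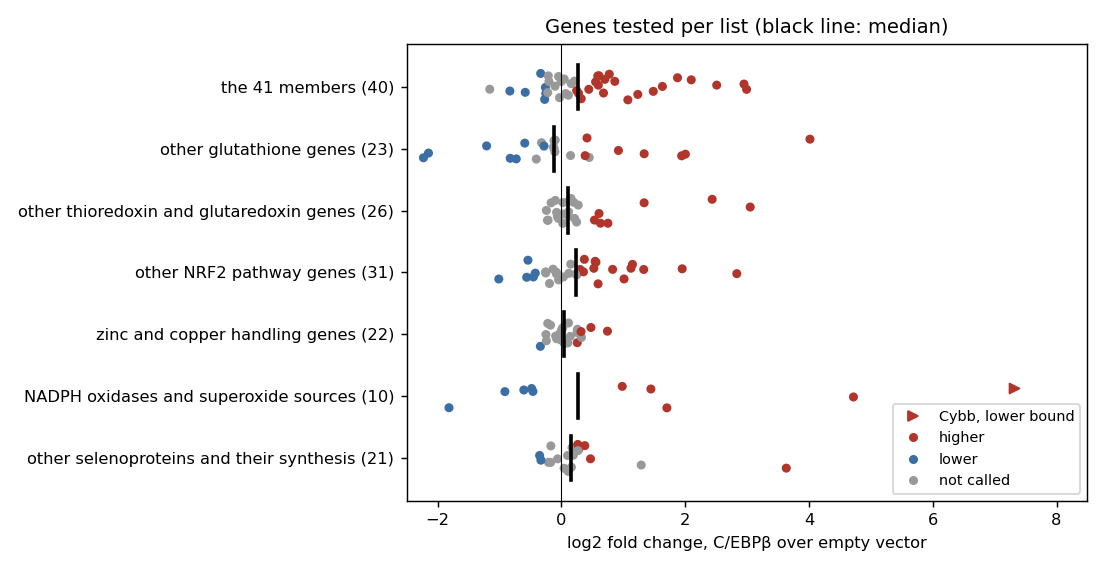
Log2 fold change, C/EBPβ over empty vector, of each gene tested in the 41 members and 6 further lists, with the number tested in brackets; black lines are medians, red and blue mark adjusted p under 0.05, and Cybb is drawn at its lower bound. The medians lie between -0.12 and 0.26, with single genes such as Xdh at 4.72 and Selenop at 3.63 far to the right.

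Replicates 1 and 2 differed in both groups. Of the 21 members that rose, 18 were higher in C/EBPβ replicate 1 than in replicate 2, and 12 were higher in empty-vector replicate 1 than in replicate 2. All 6 that fell were lower in replicate 1 of both groups. Over all genes that rose, 74.3% were higher in C/EBPβ replicate 1 and 70.0% in empty-vector replicate 1, and over all that fell, 77.1% were lower in C/EBPβ replicate 1 and 64.5% in empty-vector replicate 1. The myoblast and myotube markers were lower in C/EBPβ replicate 1, at a sum of 6484 CPM against 10430 CPM in replicate 2, and Cebpb was higher there, at 502 against 442 CPM. The part of these differences in the members' values was not tested. The spread was small for most members, with a median absolute log2 difference of 0.10 between the C/EBPβ libraries and 0.13 between the empty-vector libraries. In the authors' deposited table, whose libraries are not stated, 19 members were higher and 7 lower at an adjusted p under 0.05. The authors' deposited table and the edgeR test gave the same call for 33 of the 40 members tested here, and for the other 7 the authors' deposited table called Txnrd1, Prdx6 and Sod2 lower and did not call Gstm5, Gsto1, Mgst3 or Keap1.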

How the data were processed

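Gene expression was measured in 4 libraries, 2 per group, grouped and numbered by their titles; no label tells whether each library had its own culture, and p-values therefore reflect library-to-library spread, which may be technical. The deposited files hold raw counts of fragments per gene, which the authors made with featureCounts 1.5.1 on the reverse strand against GENCODE M12 per the file headers, from HISAT2 2.0.4 alignments to GRCm38 per the submitters' processing notes (which list featureCounts 1.4.6). The command line shows no multi-mapping or overlap setting; by default that program drops such fragments, which lowers genes with near-identical copies. A table deposited by the authors lists, per gene, p-values, a test score, a mean normalised signal and the log2 fold change; DESeq2 is among the processing tools in the notes.

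Symbols were matched for 49326 of 49585 identifiers, and all 4 libraries were fitted together with edgeR 4.0.16 (R 4.3.3): filterByExpr (minimum count 10, minimum total 15), TMM scaling, glmQLFit with robust estimation, glmQLFTest, 2-sided, with Benjamini-Hochberg adjustment over 15886 genes and a threshold of 0.05. Every adjusted p in the text is from that test unless a setting is named. CPM and FPKM use TMM-scaled library sizes, FPKM also the summed exon length; standard errors of log2 fold changes come from the F statistic. No exact permutation test was used, as 2 libraries a group allow no p below 0.333. Neither pair of libraries was a copy: their counts gave a chi-square of 18.4 (C/EBPβ) and 13.1 (empty vector) for each degree of freedom. The test was checked on simulated counts drawn with 2 kinds of spread. With the spread of each gene taken from the trend it kept its nominal rate of false calls. With gene-by-gene (tagwise) estimates, which was the first version tried, false calls exceeded the nominal rate, so the counts of called genes, and calls close to the threshold, may hold more false calls than the adjusted p states. Windows of 50 bases were compared between transcripts of GENCODE M21. The members and lists were chosen with earlier results of these data known. Named were all members and the 3 genes with the smallest p in each further list; Gstm7, Gstm3, Gstm4, Gstm6, Gstt4, Gstt2, Slc30a1 and Cybb were added after their values were seen. The table of proteins was not used here. Alternatives were median-ratio size factors, library sizes alone, no low-count filter, a mean of at least 1 CPM, DESeq2 1.42.0, limma-voom (limma 3.58.1), the replicate number as a block, and leaving out each library.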

Additional observations from a re-analysis of the deposited data

How the results depend on the processing

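Over 11 alternatives and 40 tested members, 388 of 439 comparisons kept direction and call; 35 calls were lost, 5 gained, and 11 values that were never called changed sign. The members that kept direction and call throughout were 14 that rose, 2 that fell (Gss and Gsr) and 7 without a call. Both tallies include the fits described below in which kept calls say nothing about stability, so they overstate how much was tested. With each library left out in turn, the count of changed genes ranged from 4005 to 7414 (2169 to 3712 higher, 1836 to 3702 lower) and that of changed members from 17 to 27 (15 to 20 higher, 2 to 7 lower). In the fits without either C/EBPβ library edgeR's prior degrees of freedom were infinite for every gene, and in the fit without the low-count filter for 88.3% of genes, so a gene's own spread carried no weight, the lone library was assumed to vary like the other group, and calls kept there say nothing about stability. The lowest of each range came without empty-vector replicate 2, and without C/EBPβ replicate 1 the members that fell numbered 3. With library sizes alone 2 members fell in place of 6. The cause was not tested. With library sizes alone the log2 fold changes that changed sign were 0.0079 for Gstp1, 0.0235 for Prdx1 and 0.0511 for Nqo1, and Nqo1 stood at 0.0014 with the filter at 1 CPM and 0.0016 with the replicate block. With each library left out in turn, Gstp1 ranged from -0.1283 to 0.0397, Prdx1 from -0.112 to 0.053, Nfe2l2 from -0.0061 to 0.0972 and Nqo1 from -0.1088 to 0.1083.

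Whether equal replicate numbers mark a shared culture or day is not stated in the labels. The codes of the deposited counts share a number between same-numbered libraries of the groups, but what that number stands for is not stated. Deviations of same-numbered libraries correlated at r = 0.147 across genes. With the replicate block 7677 genes and 29 members changed (21 higher, 8 lower), with Prdx6 and Sod2 added to the members that fell. Depth limits Gpx7 and Gstk1, which had under 20 fragments in every library; the filter at 1 CPM left Gpx7 untested.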
